A study of Macaca fascicularis with 64 samples.

Results

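Synaptotagmins were followed across the endocrine cells of the cynomolgus monkey islet. The members, chosen by name with earlier results of these data known, were SYT1, SYT4, SYT5, SYT7, SYT9, SYT11, SYT13 and SYT14. They are 8 of the 21041 macaque genes counted. Synaptotagmins are membrane proteins with a pair of C2 domains, and several of them bind calcium and phospholipids through these domains. Together with SNARE proteins they couple the entry of calcium to the fusion of vesicles, and in islet cells they sit on or near the granules that carry insulin, glucagon and the other hormones. Family members differ in their affinity for calcium. SYT1, SYT5, SYT7 and SYT9 are calcium sensors, although the names SYT5 and SYT9 were exchanged in part of the literature and are used here as the files give them. SYT4 and SYT11 carry a substitution that weakens calcium binding, and SYT13 and SYT14 lack the residues needed for it.

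The study sequenced single islet cells from the pancreas tail of 16 cynomolgus monkeys. Each of the 4 groups, young females, young males, old females and old males, held 4 animals, and the labels name no treatment, transgene or deletion in any of them. Cells were picked by mouth pipette and read in 64 libraries, 4 per monkey, by a modified STRT protocol, which tags the cell of origin during reverse transcription and marks each molecule with a unique molecular identifier (UMI). Tissues were collected on sequential days with 1 monkey a day, so that the day and the monkey cannot be told apart. The 5908 cells above both 800 genes and 10000 UMIs, of 6141 in all, were kept, and the retained cells of a monkey held between 21982838 and 35850398 UMIs in young and between 23664333 and 35216122 in old monkeys, spike-ins included. The libraries shared 96 cell barcodes, 93 of which were used in every library, and 0 cells had counts identical to those of another cell. The shallowest retained cell had 10016 UMIs, and the deepest cell left out with over 800 genes had 9973.

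A cell was called an α-, β-, δ- or PP-cell by the highest of the UMI counts of GCG (glucagon), INS (insulin), SST (somatostatin) and PPY (pancreatic polypeptide), so these hormone counts chose the cell groups and their differences are not a result. This gave 4503 α-cells, 1219 β-cells, 112 δ-cells and 74 PP-cells. The highest hormone exceeded the second by a median of 14.3 times in α-cells, 3.29 times in β-cells, 3.18 times in δ-cells and 2.78 times in PP-cells, and in 107 cells by less than 1.5 times. GCG reached a mean of 22849 CPM (UMIs of the gene per 1000000 UMIs of macaque genes) in β-cells against 76263 CPM in α-cells, and INS 7262 CPM in α-cells against 64335 CPM in β-cells. Markers other than the hormones followed the names for α-cells (8 of 10 listed markers highest in α-cells, the hormone included), β-cells (9 of 10) and δ-cells (8 of 10). IRX2 had a mean of 475 CPM in α-cells and 40.4 CPM in β-cells, SLC2A2 had 690 CPM in β-cells and 9.97 CPM in α-cells, and HHEX had 357 CPM in δ-cells and 0.92 CPM in β-cells. In PP-cells only 4 of the 10 listed markers were at their highest, while ABCC9, MEIS2, CARTPT and THSD7A were higher in δ-cells, ID4 in α-cells and FXYD2 in β-cells, so these cells are PPY-high cells by their rule more than by their other markers. The summed listed acinar markers reached 68.4 to 1125 CPM in δ-cells, and the summed stellate markers up to 966 CPM in PP-cells, and their part in the differences between types was not tested. Of all retained cells, 156 carried at least 3 markers of acinar, ductal, immune, stellate or endothelial cells at a summed level of at least 1000 CPM, 97 of them acinar.

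Levels are given as the CPM of the summed cells of 1 type in 1 monkey, for monkeys with at least 5 such cells. Sums were available from 16 monkeys for α-cells and for β-cells, from 11 for δ-cells (7 young, 4 old) and from 6 for PP-cells (2 young, both male, and 4 old). An α-cell sum held 178 to 362 cells and a β-cell sum 11 to 194 cells, but a δ-cell sum only 5 to 14 and a PP-cell sum 5 to 33. A UMI counts 1 molecule, so the counts are not divided by gene length, although a gene whose end is poorly annotated in the assembly may be undercounted.

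SYT4, SYT5, SYT7, SYT13 and SYT14 had a UMI in the summed cells of every monkey and type, with means between 30.6 CPM (SYT5 in β-cells) and 589 CPM (SYT13 in δ-cells). SYT1, SYT9 and SYT11 had means between 0.0 and 21.2 CPM. The 8 genes together reached 806 ± 81.7 CPM (SD, n = 16) in α-cells, 833 ± 266 CPM in β-cells (n = 16), 1046 ± 208 CPM in δ-cells (n = 11) and 917 ± 262 CPM in PP-cells (n = 6). The ranges of these totals over monkeys overlapped among all types.

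**Figure D1:**
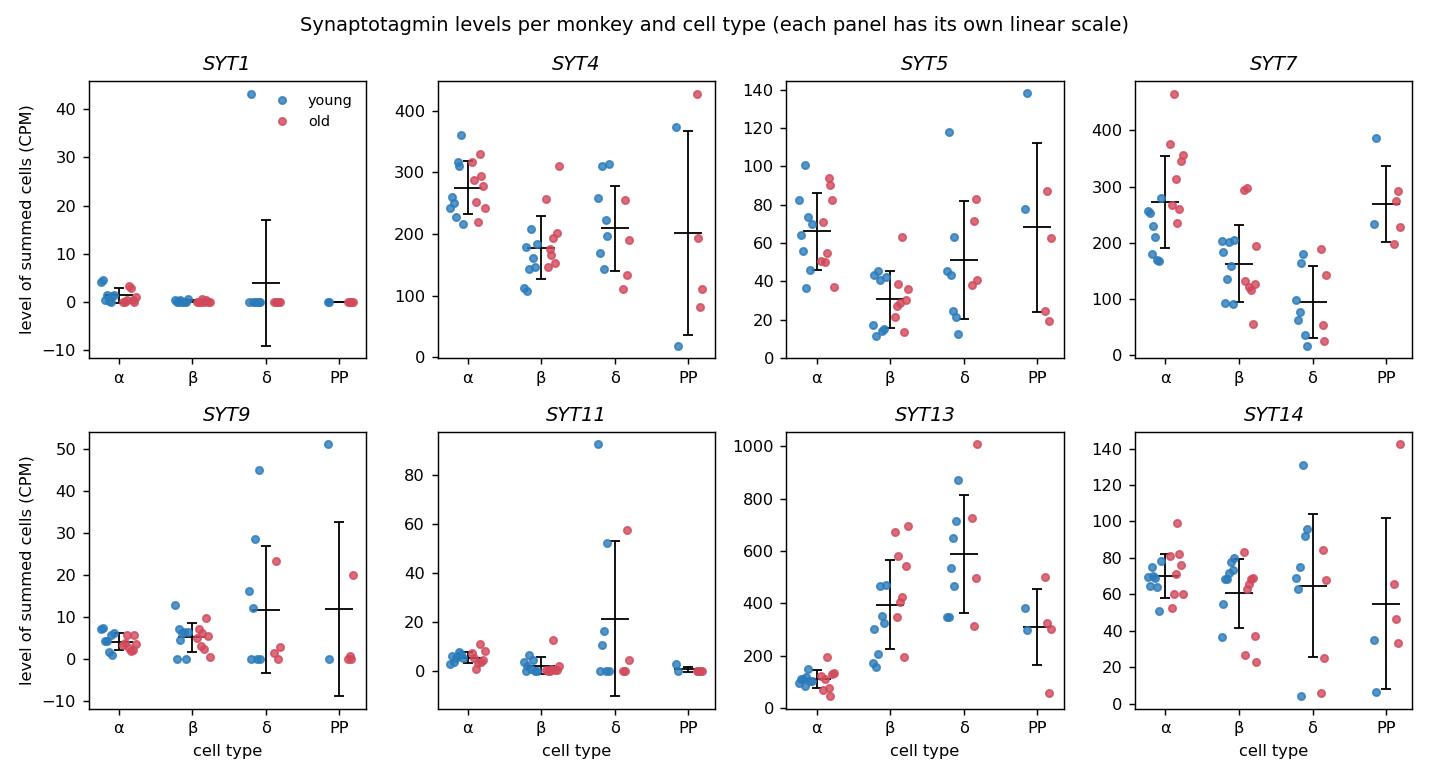
Level of each synaptotagmin (CPM of summed cells, linear axis, 1 scale per panel) by cell type. Points are monkeys, young in blue and old in red, and black marks are the mean ± SD over all monkeys of the type, whose lower end can fall below 0 for sparse genes. SYT13 is lowest in α-cells, where no monkey exceeds 194 CPM, SYT7 is lowest in δ-cells, and SYT1, SYT9 and SYT11 lie near 0 in most monkeys.

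SYT13, a member that does not bind calcium and is linked to the formation of islets from endocrine precursors in mice, set α-cells apart from the other types. It ranged from 46.0 CPM in old male 2 over a median of 111 CPM to 194 CPM in old female 4 in α-cells, and from 157 over 379 to 696 CPM in β-cells. In δ-cells it ranged from 315 over 535 to 1007 CPM. The PP-cell values were 298 and 382 CPM in the young males 4 and 1, and 501, 327, 57.5 and 302 CPM in old female 1, old female 2, old male 2 and old male 4. The α- and δ-cell ranges did not overlap, and the share of all genes without overlap was not counted. Within a monkey SYT13 was higher in β-cells than in α-cells in 16 of 16 monkeys, by a median of 4.03 times. It was higher in δ-cells than in α-cells in 11 of 11, by 4.82 times, and higher in PP-cells than in α-cells in 6 of 6, by 3.01 times. On the log2 scale of edgeR's quasi-likelihood fit with the monkey as a term, the difference from α-cells was 1.78 ± 0.17 (SE) in β-cells (adjusted p = 1.4e-12), 2.42 ± 0.19 in δ-cells (adjusted p = 4.72e-15) and 1.49 ± 0.24 in PP-cells (adjusted p = 1.82e-05). SYT13 was higher in δ-cells than in β-cells by 0.64 ± 0.19 (adjusted p = 0.0116) and lower in PP-cells than in δ-cells by 0.92 ± 0.26 (log2 fold change -0.92, adjusted p = 0.0153). β- and PP-cells are neighbours in this order without a call in edgeR, with a log2 difference of -0.28 for PP- against β-cells and a 95% interval from -0.75 to 0.18. Within monkeys, however, SYT13 was lower in PP- than in β-cells in 6 of 6, at a median ratio of 0.69. On the mean of log2(CPM/10 + 1) over cells the difference was -0.63 (permutation test, two-sided, unadjusted p = 0.0312, 0.166 after adjustment over 80 such tests). The unadjusted p is the smallest that this test can give with 6 pairs. With sums of at least 10 cells the edgeR difference was 0.40.

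In cells whose highest hormone was at least 4 times the second (4204 α-, 384 β- and 40 δ-cells), SYT13 exceeded the level of α-cells by 2.08 in β-cells (adjusted p = 1.54e-07) and by 3.03 in δ-cells (adjusted p = 8.32e-05), against the 1.78 and 2.42 above. The step from β- to δ-cells, however, had an adjusted p of 0.185 in these cells, with a log2 difference of 0.95, and of 0.0891 without the monkey term, with a difference of 0.51. The step from δ- to PP-cells was -0.79 without old male 2 (adjusted p = 0.053), -0.85 without old male 4 (0.0533), -0.79 without the monkey term (0.0569) and -0.28 with sums of at least 10 cells (0.934).

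SYT7, a calcium sensor of high affinity and slow kinetics whose loss in mice lowers the secretion of insulin and glucagon, was lower in β- and δ-cells than in α-cells, and high again in PP-cells. It ranged from 167 over a median of 258 to 465 CPM in α-cells, from 55.4 over 147 to 297 CPM in β-cells and from 17.1 over 76.5 to 188 CPM in δ-cells. In PP-cells it was 234 and 387 CPM in young males 1 and 4 and 197, 274, 292 and 228 CPM in old female 1, old female 2, old male 2 and old male 4. All PP-cell values lay above all δ-cell values, and the share of all genes without overlap was not counted. Within monkeys SYT7 was lower in β-cells than in α-cells in 16 of 16 and lower in δ-cells than in α-cells in 11 of 11, at median ratios of 0.57 and 0.38. The log2 differences were -0.80 ± 0.18 for β- against α-cells (adjusted p = 0.000521), -1.70 ± 0.23 for δ- against α-cells (adjusted p = 1.01e-07), -0.90 ± 0.22 for δ- against β-cells (adjusted p = 0.00253) and 1.66 ± 0.29 for PP- against δ-cells (adjusted p = 6.26e-05). In cells with the highest hormone at least 4 times the second, the step from β- to δ-cells was -1.31 with an adjusted p of 0.119. PP- and α-cells were neighbours whose difference was -0.04, with a 95% interval from -0.58 to 0.49. PP-cells were above β-cells by 0.76 ± 0.27 with an adjusted p of 0.0429, a call that was lost under 16 of 27 alternatives, among them the removal of old female 2, old female 4, old male 2, old male 3, young female 1, young female 3, young female 4, young male 1 or young male 4 (log2 differences from 0.42 to 0.79, adjusted p from 0.0503 to 0.283). In thinned cells it was 0.33 (adjusted p = 0.411).

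SYT4 and SYT5 were lower in β-cells than in α-cells. SYT4, which in mouse β-cells changes the calcium sensitivity of insulin release as the cells mature, was 275 ± 43.2 CPM in α-cells (n = 16), 178 ± 50.9 in β-cells (n = 16), 209 ± 69.0 in δ-cells (n = 11) and 201 ± 165 in PP-cells (n = 6). Its α-cell values ran from 215 to 361 CPM and overlapped with the β-cell values of 108 to 311 CPM, but within monkeys SYT4 was lower in β-cells in 15 of 16. The log2 difference of β- from α-cells was -0.63 ± 0.20 (adjusted p = 0.0125). For δ- against α-cells it was -0.56 ± 0.23 (adjusted p = 0.0775) and for PP- against α-cells -0.62 ± 0.31 (adjusted p = 0.218), and β-, δ- and PP-cells were neighbours that did not differ beyond their error, with differences between -0.07 and 0.07. The δ- against α-cell difference passed the threshold without young female 3 (-0.67, adjusted p = 0.0389) and in cells thinned to 10000 UMIs (-0.84, adjusted p = 0.00406), and the range of its adjusted p over all alternatives was 0.00406 to 0.596. The PP- against α-cell difference passed it in thinned cells (-0.99, adjusted p = 0.0336, range 0.0336 to 0.825).

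SYT5, a calcium sensor, was 66.3 ± 20.1 CPM in α-cells, 30.6 ± 14.7 in β-cells, 51.1 ± 30.8 in δ-cells and 68.4 ± 44.0 in PP-cells, with the same numbers of monkeys. It was lower in β- than in α-cells in 15 of 16 monkeys, by a log2 difference of -1.24 ± 0.25 (adjusted p = 0.00011). The PP-cell level exceeded that of β-cells in 6 of 6 monkeys and by 1.19 ± 0.37 (adjusted p = 0.0191), although the call was lost without old female 2 (0.98, adjusted p = 0.105), young male 1 (1.10, 0.058) or young male 4 (0.94, 0.109). It was also lost in thinned cells (0.73, adjusted p = 0.25) and with at least 10 cells per sum (1.46, adjusted p = 0.256). On the mean of log2(CPM/10 + 1) over cells, the difference of 0.64 had an unadjusted p of 0.0625 in the exact permutation test. PP- and α-cells differed by -0.04, with an interval from -0.79 to 0.70, and δ-cells lay between β- and α-cells without a call on either side (0.75 and adjusted p = 0.0687 against β-cells, -0.48 and adjusted p = 0.239 against α-cells). The step from β- to δ-cells passed the threshold with DESeq2 (1.00, adjusted p = 0.00168), without young female 4 (0.90, adjusted p = 0.0328) and without young male 3 (0.84, adjusted p = 0.0462), within a range over all alternatives of 0.00168 to 0.813.

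SYT14, which does not depend on calcium, was the member with the flattest profile. It was 70.2 ± 12.1 CPM in α-cells, 60.5 ± 19.1 in β-cells, 64.8 ± 39.2 in δ-cells and 55.0 ± 47.0 in PP-cells. None of its 6 differences between types passed the test, their size lay between -0.32 and 0.00 on the log2 scale, and the interval of the best determined of them, β- against α-cells, ran from -0.79 to 0.33. In single δ-cell and PP-cell sums it went as low as 4.09 CPM (1 UMI, young female 4) and as high as 142 CPM (old male 4).

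SYT1, SYT9 and SYT11 were sparse. SYT1, the fast calcium sensor of synaptic vesicles, had 433 UMIs in all α-cell sums, 22 in β-cell sums, 11 in δ-cell sums, all of them in young female 2, and 0 in PP-cells, and it had too few UMIs for the edgeR fit between types. On the mean of log2(CPM/10 + 1) over cells, SYT1 was lower in β- than in α-cells by a difference of -0.032, with 2 of 16 monkeys higher in β-cells (permutation test, two-sided, unadjusted p = 0.00391, 0.0313 after adjustment over 80 such tests). SYT9, another calcium sensor, was 4.17 ± 1.99 CPM in α-cells, 5.22 ± 3.48 in β-cells, 11.8 ± 15.1 in δ-cells, where 4 of 11 sums had none of it. In PP-cells 3 of 6 sums had none, and old female 2, old male 4 and young male 1 had 0.667, 19.9 and 51.1 CPM. Its 6 differences were not called in edgeR, and their intervals were wide, from -0.91 to 1.27 for β- against α-cells. The permutation test on the mean over cells gave 0.065 for β- against α-cells, higher in 13 of 16 monkeys (unadjusted p = 0.0449, adjusted p = 0.211). SYT11, a relative of SYT4, was 5.35 ± 2.44 CPM in α-cells, 1.98 ± 3.38 in β-cells, 21.2 ± 31.7 in δ-cells and 0.448 ± 1.10 in PP-cells, where it rested on 1 UMI. In β-cells its median was 0.31 CPM and 5 of 16 monkeys had none, and in δ-cells 5 of 11 had none while young female 1 had 92.5 CPM. The fit gave a log2 difference of -3.25 ± 0.70 for β- against α-cells (adjusted p = 0.000269) and 3.22 ± 0.81 for δ- against β-cells (adjusted p = 0.00299). The first had an adjusted p of 0.135 and a difference of -1.36 without the monkey term, and the second an adjusted p of 0.248 and a difference of 2.83 with the stricter hormone rule. For δ- against α-cells the fit gave -0.03 ± 0.42, and 1.87 (adjusted p = 0.0497) without the monkey term. PP-cells were below α- and δ-cells for SYT11 by differences that were not called (adjusted p = 0.117 and 0.134), and against β-cells the log2 difference was -0.47 in edgeR and 0.47 in DESeq2 (adjusted p = 0.825).

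**Figure D2:**
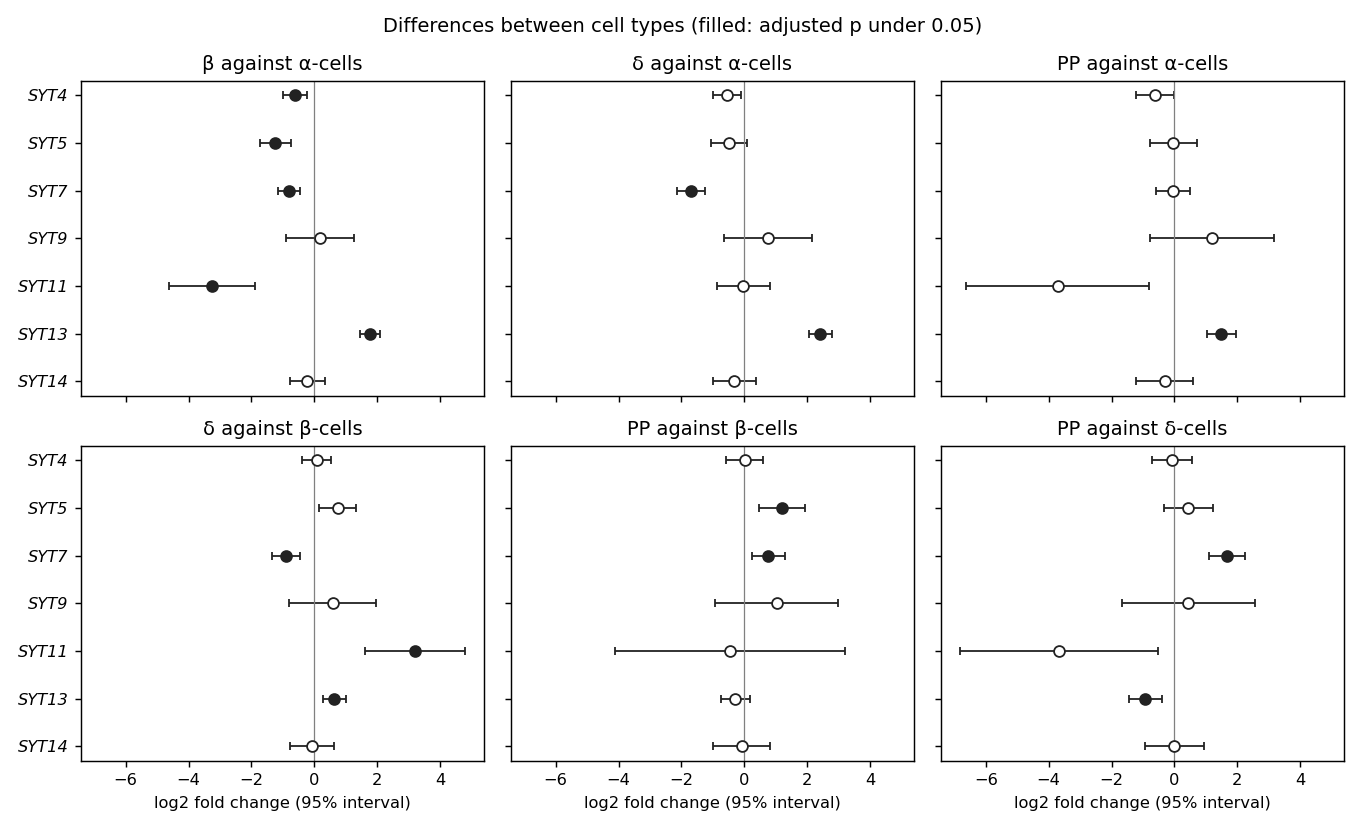
Log2 fold change (x axis) of the 7 synaptotagmins with enough UMIs in each of the 6 pairwise comparisons of cell types, from edgeR's quasi-likelihood test on sums per monkey. Bars are nominal 95% intervals and filled points have an adjusted p under 0.05. The 3 comparisons with α-cells all show SYT13 to the right of 0, by 1.78, 2.42 and 1.49.

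The counts of calls are set beside the shares of all 12899 genes tested. The members were chosen with earlier results of these data known, so this is a description and no test of the members. For β- against α-cells 1 of 7 members was higher and 4 were lower, where 8.66% of all genes were higher and 16.3% lower. For δ- against α-cells 1 was higher and 1 lower, beside 4.36% and 18.9% of all genes, and for PP- against α-cells 1 was higher and 0 lower, beside 1.78% and 4.82%. δ- against β-cells had 2 higher and 1 lower, beside 5.26% and 14.5% of all genes. PP- against β-cells had 2 higher and 0 lower, beside 6.67% and 10.6%, and PP- against δ-cells had 1 higher and 1 lower, beside 6.51% and 3.83%. The median difference of the 7 members from α-cells was -0.63 in β-cells, -0.32 in δ-cells and -0.04 in PP-cells, and the median of all genes tested was -0.11, -0.47 and -0.37. DESeq2 moved the median of all genes by up to 0.34, for δ- against β-cells, and the part of its scaling in this was not tested. Leaving out TMM factors moved the median by -0.20 for PP- against δ-cells. With DESeq2, 37.3% of the calls for δ- against α-cells were higher in δ-cells against 18.8% with edgeR, 42.9% against 27.0% for PP- against α-cells, 49.3% against 26.6% for δ- against β-cells and 54.2% against 38.7% for PP- against β-cells. SYT13 stayed higher in β-, δ- and PP-cells than in α-cells, and SYT7 lower in β- and δ-cells than in α-cells, under each of these settings. For PP- against δ-cells the share was 63.0% with edgeR and 45.3% without TMM factors.

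As a share of the UMIs of the 8 genes, α-cells were led jointly by SYT4 (34.4% ± 6.27, SD over 16 monkeys) and SYT7 (33.4% ± 7.18), each of which was the highest member in 8 of 16 monkeys. SYT13 was the highest member in 15 of 16 monkeys in β-cells, with 45.7% ± 7.72, and in 11 of 11 in δ-cells, with 54.8% ± 12.1. In PP-cells SYT7 (33.0% ± 16.8) and SYT13 (31.9% ± 10.2) were close to each other, and SYT13 was highest in 4 and SYT7 in 2 of 6 monkeys. SYT7 made up 9.08% ± 5.71 of the UMIs in δ-cells, and SYT14 held between 6.27% and 8.77% in all types.

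**Figure D3:**
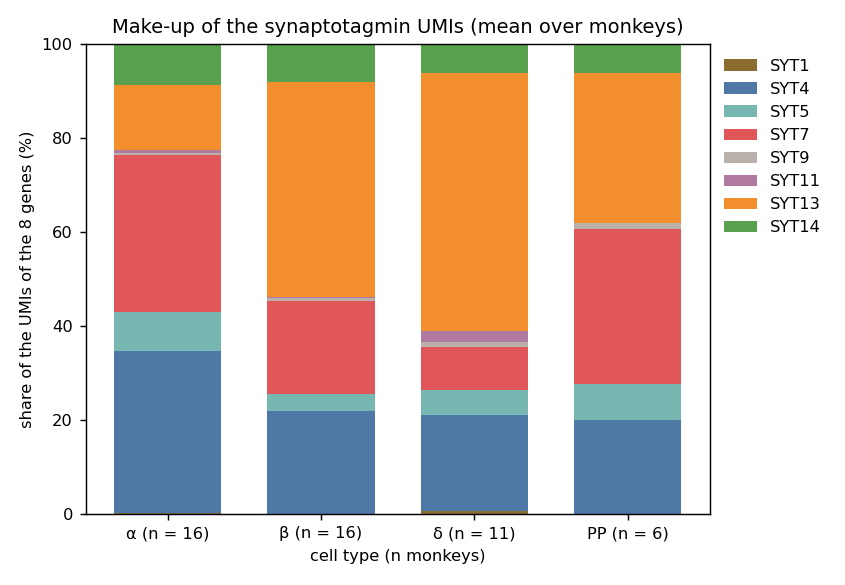
Share of the UMIs of the 8 synaptotagmins (y axis, %) that each gene held, as the mean over the monkeys of a cell type. SYT4 and SYT7 make up similar parts in α-cells (34.4% and 33.4%), and SYT13 holds the largest part in β-cells (45.7%) and δ-cells (54.8%).

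Single cells held UMIs of several family members at once. The median number of the 8 genes with a UMI was 4 in α-, β- and PP-cells and 3 in δ-cells, and 35 of 4503 α-cells and 4 of 1219 β-cells had a UMI of none of them. Types differed in depth, with a median of 64894 macaque UMIs per α-cell, 74425 per β-cell, 43776 per δ-cell and 45772.5 per PP-cell. Each cell was therefore also thinned to 10000 UMIs. The median number of the 8 genes with a UMI was then 3 in α-, β- and PP-cells and 2 in δ-cells. After thinning, 145 α-cells and 36 β-cells had a UMI of none of them. SYT13 then had a UMI in 44.6% of α-cells (95% interval 43.2 to 46.1, exact Clopper-Pearson), 79.8% of β-cells (77.4 to 82.0), 80.4% of δ-cells (71.8 to 87.3) and 67.6% of PP-cells (55.7 to 78.0), where the unthinned shares were 79.1%, 94.0%, 94.6% and 94.6%. SYT7 was found in 72.5%, 58.9%, 44.6% and 67.6% of the thinned cells of the same types (92.4%, 90.3%, 68.8% and 93.2% unthinned), and SYT4 in 73.7%, 64.4%, 55.4% and 56.8% (94.0%, 92.5%, 80.4% and 93.2% unthinned). SYT5 was in 35.0% of α-, 18.0% of β- and 32.4% of PP-cells and in 28 of 112 δ-cells (63.0%, 50.2%, 56.8% and, in δ-cells, 43.8% unthinned), and SYT14 in 29.6%, 30.2%, 23.2% and 20.3% (50.0%, 53.8%, 38.4% and 40.5% unthinned). SYT1 had a UMI in 0.672% of thinned α-cells and in 0 of 74 PP-cells. At 3 counts of the total, 0 of 74 allows a share of cells with a UMI of up to 4.05%, which is no limit on the cells that express the gene. These intervals cover counting error only, since cells of 1 monkey are not replicates.

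Free RNA can give UMIs in cells that do not express a gene, so shares were also taken in cells that carried markers of other lineages. Each of these had still been typed by a hormone, and doublets were not called. Their shares therefore cannot tell free RNA from the RNA of an endocrine cell. In the 58 cells with immune, stellate or endothelial markers, 53 of which were deep enough for thinning, SYT13 had a UMI in 37.7% (24.8 to 52.1), SYT4 in 43.4%, SYT7 in 35.8%, SYT14 in 15.1% and SYT5 in 7.55%. SYT1 and SYT11 each had a UMI in 2 of the 53 cells (3.77%, 0.460 to 13.0), and for each gene both were among the 22 cells with stellate markers. The shares of SYT1 in α-cells (0.672%) and of SYT11 in α-cells (3.23%, 2.73 to 3.79), β-cells (1.65%, 1.01 to 2.54) and δ-cells (5.36%, 1.99 to 11.3) were not above that 3.77% beyond counting error. Those of SYT11 in α- and β-cells differed from each other beyond it, and whether these UMIs came from free RNA was not tested. SYT9 had a UMI in 0 of the 53 cells, which by the same 3 counts allows up to 5.66% of cells with a UMI, against 2.31% of α-cells and 4.78% of β-cells. For SYT13 the shares in β-, δ- and PP-cells were above that in the cells with immune, stellate or endothelial markers beyond both intervals, and the share in α-cells lay within its interval. The 97 cells with acinar markers had a UMI of SYT4 in 75.3%, of SYT7 in 77.3%, of SYT13 in 42.3%, of SYT14 in 34.0% and of SYT5 in 33.0%, and the exact interval of each of these shares held the α-cell share.

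**Figure D4:**
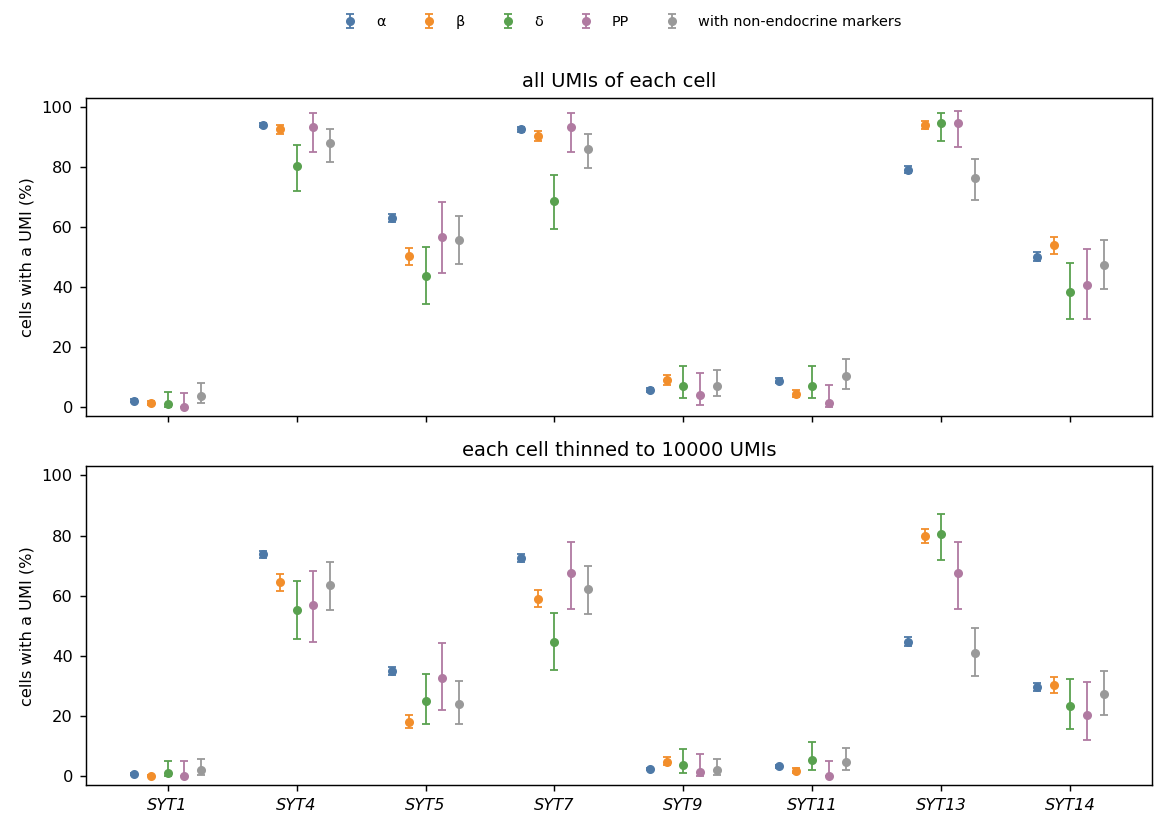
Share of cells with at least 1 UMI of each gene (y axis, %), before thinning (top) and after each cell was thinned to 10000 UMIs (bottom), in the 4 cell types and in the 156 cells with non-endocrine markers. Bars are exact 95% intervals for counting error. SYT13 separates α-cells (44.6%) from β-cells (79.8%) in the lower panel, and SYT1, SYT9 and SYT11 are in at most 5.36% of thinned cells in every group.

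After thinning, the 10% of α-cells with the most UMIs of a gene held 37.8% of the UMIs of SYT4, 38.3% of SYT7, 50.0% of SYT13, 52.5% of SYT5 and 61.0% of SYT14. A single α-cell carried up to 1068 UMIs of SYT13 before thinning.

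Whether the synaptotagmins changed with age was asked by comparing the 8 old with the 8 young monkeys in each type, with sex in the model. edgeR called 0 of 8 members in α-cells, beside 0.0% of all 12916 genes tested, 0 of 6 in β-cells (5 genes, 0.047% of 10628), 0 of 5 in δ-cells (0.0%) and 0 of 5 in PP-cells (0.0%). At an unadjusted p under 0.05, 1 of 8 members was found in α-cells (6.86% of all genes) and 2 of 6 in β-cells (5.54% of all genes), and 0 of 5 in δ-cells (3.22% of all genes) and in PP-cells (6.0% of all genes). DESeq2 called 23, 39, 3 and 2 of all genes in the 4 types, of which SYT7 in α-cells was the only member.

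SYT7 in α-cells was the member with the lowest p. Young monkeys had between 167 and 279 CPM with a median of 220 CPM, and old monkeys between 235 and 465 CPM with a median of 329 CPM. The lowest old value lay above the young median, and the ranges overlapped only between 235 and 279 CPM. By sex, the young females had 257, 253, 180 and 230 CPM and the old females 375, 268, 465 and 314 CPM, while the young males had 210, 169, 167 and 279 CPM and the old males 235, 260, 345 and 356 CPM. The log2 difference of old from young was 0.56 ± 0.13 (95% interval 0.30 to 0.82, unadjusted p = 0.000556), but the adjusted p was 0.479 in edgeR. In DESeq2 the same difference of 0.56 had an adjusted p of 0.0327, and over all alternatives the adjusted p lay between 0.0327 and 0.757 with a difference between 0.47 and 0.64. On the mean of log2(CPM/10 + 1) per cell, the difference was 0.58 (exact permutation test, two-sided, unadjusted p = 0.0446). The summed level of the listed β-cell markers without the hormone lay between 107 and 300 CPM in young and between 124 and 359 CPM in old α-cells, that of the immune markers between 1.86 and 218 and between 1.78 and 54.2 CPM, and that of the acinar markers between 2.45 and 2646 and between 0.806 and 54.3 CPM. Without the cells that carried non-endocrine markers the log2 difference in SYT7 was 0.56. The part of these markers, or of free RNA in the remaining cells, in the difference was not tested.

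SYT13 in β-cells was between 157 and 469 CPM with a median of 313 CPM in young monkeys and between 194 and 696 CPM with a median of 483 CPM in old monkeys, so that the ranges overlapped widely. Its log2 difference was 0.69 ± 0.23 (interval 0.24 to 1.14, unadjusted p = 0.00603, adjusted p = 0.684). In β-cells with INS at least 4 times the second hormone it was 0.27 (unadjusted p = 0.571, adjusted p = 1.0), in 384 of the 1219 β-cells. The summed α-cell markers without the hormone were between 28273 and 52853 CPM in young and between 21901 and 52533 CPM in old β-cells, with TTR at a mean of 35458 CPM, and their part in the result was not tested. SYT4 in β-cells differed by 0.35 ± 0.16 (unadjusted p = 0.0458, adjusted p = 0.886).

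The other members had differences close to 0 or with wide errors. In α-cells SYT4 (0.01 ± 0.13), SYT5 (0.00 ± 0.23), SYT13 (-0.05 ± 0.21), SYT14 (0.09 ± 0.14) and SYT11 (-0.05 ± 0.37) had log2 differences under 0.1 in size, and SYT9 (-0.37 ± 0.39) and SYT1 (-0.45 ± 1.06) were less well determined. For SYT4 in α-cells the 95% interval ran from -0.24 to 0.26. In β-cells the values were -0.01 ± 0.25 for SYT7, 0.18 ± 0.35 for SYT5, -0.29 ± 0.26 for SYT14 and -0.13 ± 0.65 for SYT9. δ-cells, with 7 young and 4 old monkeys, gave -0.51 ± 0.44 for SYT4, 0.40 ± 0.85 for SYT5, 0.27 ± 0.67 for SYT7, 0.11 ± 0.35 for SYT13 and -0.77 ± 0.83 for SYT14. PP-cells, with 2 young monkeys, gave values between -1.28 ± 1.15 (SYT5) and 2.19 ± 1.32 (SYT14), with SYT4, SYT7 and SYT13 at -0.92, -0.15 and -0.81.

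**Figure D5:**
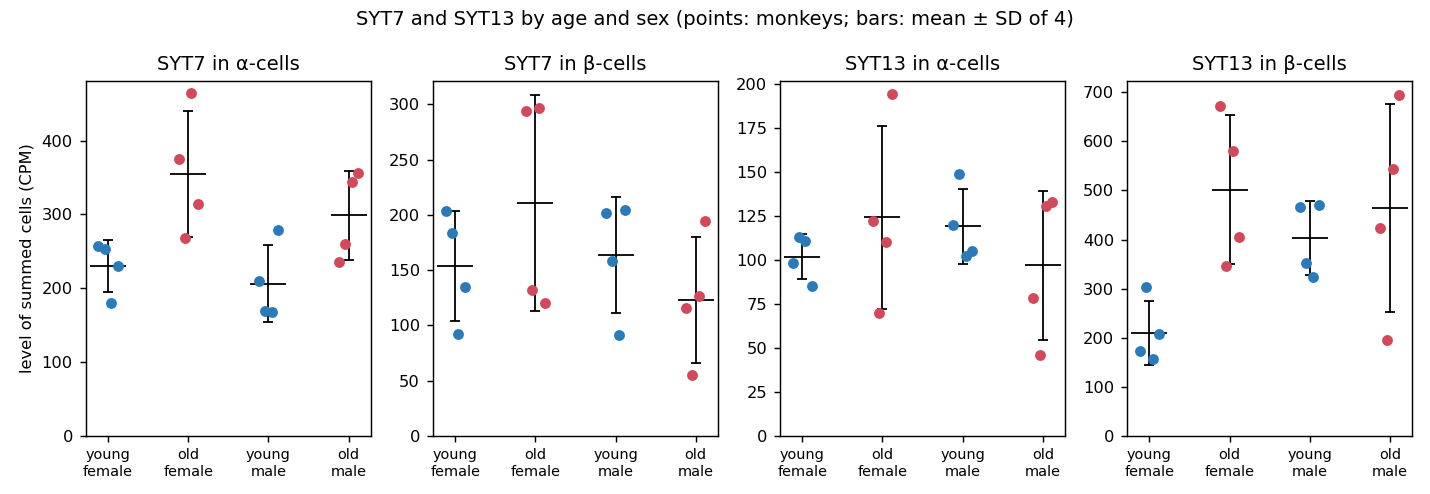
Levels of SYT7 and SYT13 (CPM of summed cells, axes from 0) in α- and β-cells by age and sex. Points are monkeys and bars the mean ± SD of 4. In α-cells SYT7 had a mean of 218 CPM in young and 327 CPM in old monkeys, and in β-cells SYT13 had means of 210 and 501 CPM in young and old females and 403 and 464 CPM in young and old males.

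The age differences of β- and α-cells were set against each other in 1 fit with the monkey as a term. edgeR called 0 of 8 members, beside 0.0% of 13322 genes, while 2 of 8 had an unadjusted p under 0.05 (6.05% of all genes) and DESeq2 called 10 genes and none of the members. SYT13 differed by 0.76 ± 0.22 more in β- than in α-cells (unadjusted p = 0.00172, adjusted p = 0.638), and SYT7 by -0.62 ± 0.20 (unadjusted p = 0.00463, adjusted p = 0.67). For SYT14 the value was -0.47 ± 0.24, for SYT4 0.32 ± 0.18, for SYT5 0.25 ± 0.38 and for SYT9 0.25 ± 0.76, and those of SYT11 (-1.43 ± 1.24) and SYT1 (0.33 ± 2.49) were poorly determined.

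Both sexes were sampled at both ages, so the age difference was also compared between them. SYT13 in β-cells was 174, 302, 157 and 207 CPM in the young females and 673, 347, 581 and 406 CPM in the old females. These 2 groups did not overlap, but the share of all genes without overlap was not counted. In males it was 465, 352, 324 and 469 CPM in young and 423, 194, 544 and 696 CPM in old monkeys, with the old males on both sides of the young. The log2 difference of old from young was 1.21 ± 0.29 in females (unadjusted p = 0.000405, adjusted p = 0.459) and 0.21 ± 0.28 in males (adjusted p = 0.988). The test of the difference between the sexes gave -0.99 ± 0.40 for males minus females (unadjusted p = 0.0224, adjusted p = 1.0). In this test 0 of 7 members were called in β-cells, beside 0.0% of 11693 genes (2 members, SYT13 and SYT11, had an unadjusted p under 0.05, as had 4.23% of all genes, and DESeq2 called 2 genes and no member), and 0 of 8 in α-cells, beside 0.00707% of 14146 genes (0 members and 5.61% of all genes with an unadjusted p under 0.05, and DESeq2 called 8 genes and no member). SYT11 in β-cells had a value of 5.41 ± 2.15 that rested on few UMIs. In β-cells with INS at least 4 times the second hormone, the value of SYT13 for males minus females was -2.42 and was not called. SYT7 in α-cells was higher in old monkeys by 0.60 ± 0.19 in females and 0.53 ± 0.19 in males, and the difference between the sexes was -0.07 ± 0.27. The remaining values for males minus females lay between -0.58 ± 0.40 (SYT13) and 2.25 ± 2.08 (SYT1) in α-cells, with SYT5 at 0.88 ± 0.43, SYT9 at 0.45 ± 0.80, SYT14 at 0.40 ± 0.26, SYT11 at 0.13 ± 0.76 and SYT4 at -0.16 ± 0.26. In β-cells they lay between -0.80 ± 0.48 (SYT7) and 0.44 ± 0.70 (SYT5), with SYT14 at -0.54 ± 0.52, SYT4 at -0.10 ± 0.33 and SYT9 at 0.36 ± 1.35. Over all ages, edgeR called 0 of 8 members between males and females in α-cells and 0 of 6 in β-cells, beside 0.0% of all genes in both. At an unadjusted p under 0.05 it found 0 members, beside 5.83% of all genes in α-cells and 3.99% in β-cells.

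Of 9 further synaptotagmins listed, 8 were in the files and 5 passed the filter. SYT17, also called B/K protein, was at 124 ± 29.8 CPM in α-cells, 85.2 ± 29.9 in β-cells, 143 ± 139 in δ-cells and 139 ± 71.9 in PP-cells, a level above that of SYT5 and SYT14, and was lower in β- than in α-cells by -0.58 ± 0.21 (adjusted p = 0.0343). SYT3 and SYT16 were also lower in β-cells (adjusted p = 0.00236 and 0.0232), from means of 7.47 and 3.41 CPM in α-cells, and SYT16 had no UMI in 6 of 6 PP-cell sums (adjusted p = 0.0446 against α-cells). SYT2, a fast calcium sensor close to SYT1, was at 49.1 ± 35.7 CPM in δ-cells and at 4.12 ± 3.70 CPM in α-cells, 2.49 ± 3.67 CPM in β-cells and 3.29 ± 5.84 CPM in PP-cells, with a log2 difference of 4.39 ± 0.73 for δ- against α-cells (adjusted p = 8.36e-06). SYT6 was at 14.3 ± 14.5 CPM in δ-cells, where 3 of 11 monkeys had none, while 15 of 16 β-cell sums and 6 of 6 PP-cell sums had none (adjusted p = 2.05e-08 for δ- against α-cells). SYT8, SYT10 and SYT12 had means of at most 0.163 CPM except for SYT10 in PP-cells, where 5 of 6 monkeys had none.

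A list of 71 other genes of exocytosis, which holds these synaptotagmins, was written from general knowledge, with earlier results of these data known. Of these, 59 were tested between types. In β- against α-cells 5 were higher and 20 lower (median log2 difference -0.53), in δ- against α-cells 4 were higher and 8 lower (-0.30), and in PP- against α-cells 5 were higher and 3 lower (-0.10), beside the shares of all genes above. δ- against β-cells had 9 higher and 4 lower, PP- against β-cells 12 and 3, and PP- against δ-cells 9 and 5. Among the calcium channels, CACNA2D2, an auxiliary subunit, was lower in β- than in α-cells by -3.47 ± 0.26, and CACNA1E, the pore of the R-type channel, was higher by 1.19 ± 0.40 in β- and by 1.98 ± 0.47 in δ-cells. RAB3B, a small GTPase of secretory granules, was lower than in α-cells by -2.28 ± 0.41 in β-cells, -1.78 ± 0.51 in δ-cells and -2.65 ± 0.72 in PP-cells, and RAB27A, another granule GTPase, was higher in β-cells by 0.86 ± 0.22. CPLX1, a complexin that clamps SNARE complexes, was lower in δ- than in α-cells by -2.88 ± 0.41 and higher in PP- than in δ-cells by 2.83 ± 0.52. MLPH, which links RAB27A to myosin, was higher in PP-cells than in α-, β- and δ-cells, by 2.71 ± 0.76, 3.67 ± 0.79 and 3.05 ± 0.86. CACNA2D2 was also higher than in β-cells by 2.76 ± 0.30 in δ-cells and 4.47 ± 0.34 in PP-cells. STX1A, a syntaxin, and SYTL1 were lower in δ- than in β-cells by -1.15 ± 0.23 and -1.65 ± 0.40, SNAP25 and NAPA were lower in PP- than in β-cells by -1.01 ± 0.25 and -0.98 ± 0.31, CACNA1E was lower in PP- than in δ-cells by -2.80 ± 0.80, and CACNA1H, a T-type channel, was higher in PP- than in α-cells by 1.60 ± 0.40. With age, 0 of 56 tested genes of the list were called in α-cells, 0 of 47 in β-cells, 0 of 33 in δ-cells and 0 of 34 in PP-cells, with median log2 differences of 0.13, 0.07, 0.10 and 0.05.

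The genes whose levels were most like those of each member were found by Pearson's correlation of log2 CPM over the 49 sums of all monkeys and types, which share animals and differ in depth, so the values are a description. SYT13 was most like CABP7, a calcium-binding protein (r = 0.84), SPTBN1 (r = 0.76) and PCSK1, a prohormone convertase (r = 0.76), where the median over all 8208 genes compared was -0.135. SYT7 was most like WNT4 (r = 0.78), CPLX1 (r = 0.78) and FAM193B (r = 0.75), beside a median of 0.144. For SYT4 these were PTPRA (r = 0.73), ITGB1BP1 (r = 0.72) and RUVBL2 (r = 0.69), and for SYT5 they were SPATS2L (r = 0.66), PLD3 (r = 0.65) and SF1 (r = 0.61). SYT14 was most like an unnamed gene, ENSMFAG00000033314 (r = 0.79), TMEM68 (r = 0.79) and MPG (r = 0.77). SYT9, with PRKAR2A, INTS5 and ZNF222 (r from 0.64 to 0.70), and SYT11, with MINDY4, PLD5 and CAMK2B (r from 0.58 to 0.63), rested on sparse counts.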

How the data were processed

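The authors deposited UMI counts per gene and cell: reads were split by cell barcode, aligned with TopHat2 2.0.12 to the Macaca_fascicularis_5.0 assembly, counted with htseq-count over uniquely mapped reads, and reads with the same UMI were counted once. CASAVA 1.8 is also named in the submitters' processing notes. Reads that map to several genes are thus not counted, which can lower genes with near-identical copies. Cells with over 800 genes and over 10000 UMIs (spike-ins included) were retained, the 95 spike-in rows (5.41% of UMIs) were left out of levels and tests, and doublets were not called. The authors' filter on mapping rate was not used here. Coordinates and sequences of the genes are not used here.

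Sums of counts per monkey and type (at least 5 cells) were compared by edgeR 4.0.16 (R 4.3.3; quasi-likelihood test, TMM factors, filterByExpr, Benjamini-Hochberg adjustment over all genes tested, threshold 0.05), with the monkey as a term between types and sex as a term between ages. The 6 contrasts of types came from 1 fit on 49 sums. DESeq2 1.42.0 was the other tool. Each member was also compared by permutation over monkeys of the mean of log2(CPM/10 + 1) over cells (80 two-sided tests, sign changes between types and regrouping between ages). A ± beside a log2 difference is its standard error, taken as the size of the difference over the square root of the test's F value. Intervals are at a nominal 95%. Those of log2 differences treat this error as normal and leave out the fit's degrees of freedom. They are approximate, and too narrow where few monkeys were compared. The scripts were tested on simulated data. The other values came from scipy 1.17.1, pandas 2.3.3 and numpy 2.4.6 under Python 3.11.15, and the plots from matplotlib 3.10.9.

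All listed synaptotagmins are named. Other exocytosis genes are named if called with a mean of at least 10 CPM, the 2 with the largest change in each direction per comparison, and genes of like pattern are the 3 with the highest correlation among genes of at least 10 CPM. The members and lists were chosen with earlier results of these data known.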

Additional observations from a re-analysis of the deposited data

Results flagged for a closer look

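In 5 of 53 groups of 4 to 8 monkeys tested, 1 value lay far from the others by Dixon's test. Its rate of about 5% of groups by chance holds for normally spread values. All 5 belong to the sparse genes, with most sums at or near 0, so that rate does not hold for them. SYT1 in δ-cells of young monkeys was 43.3 CPM in young female 2 (11 UMIs in 6 cells) and 0 in the other 6. SYT9 in δ-cells of old monkeys was 23.3 CPM in old female 2 (13 UMIs in 11 cells) with the next at 2.90 CPM, and in PP-cells of old monkeys 19.9 CPM in old male 4 (7 UMIs in 6 cells) with the next at 0.667 CPM. SYT11 in δ-cells of old monkeys was 57.6 CPM in old male 2 (16 UMIs in 5 cells) with the next at 4.35 CPM, and in β-cells of old monkeys 12.5 CPM in old male 1 (74 UMIs in 83 cells) with the next at 1.82 CPM.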

How the results depend on the processing

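Of the values for single genes under other settings, 2155 kept their direction and their side of the threshold, 33 fell below it, 15 passed it and 197 changed sign. Over all settings the number of listed synaptotagmins called ran from 4 to 7 for β- against α-cells, beside 5 as reported, and from 2 to 3 for δ- against α-cells, beside 2. Elsewhere it moved by more than 1.5 times as follows. PP- against α-cells gave 2 in thinned cells. δ- against β-cells gave 0 where the highest hormone was at least 4 times the second. PP- against β-cells gave 1 without the filter on low counts, without TMM factors, with the hormones left out, without cells above the 95th percentile of UMIs or with over 2000 genes and 20000 UMIs, and 0 with at least 10 cells per sum or in thinned cells. PP- against δ-cells gave 1 with at least 10 cells per sum and 0 by exact permutation, whose smallest p with 5 pairs is 0.0625. Old against young α-cells gave 1 with DESeq2 and 1 by permutation. Leaving out each monkey gave 5 to 6 calls for β- against α-cells, 2 to 3 for δ- against α-cells, 1 for PP- against α-cells, 3 to 4 for δ- against β-cells, 0 to 2 for PP- against β-cells, 1 to 2 for PP- against δ-cells and 0 for every comparison of ages.

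The values that changed sign belong to 42 differences, none of which was called as reported, and 1 of the values, SYT11 for δ- against α-cells without the monkey term, passed the threshold. The cause was not tested. Over the monkeys left out, SYT1 ran from -0.54 to 1.08 and SYT9 from -0.032 to 0.53 for the age difference of β- minus α-cells, and SYT11 ran from -0.25 to 0.49 and SYT7 from -0.16 to 0.12 for the age difference of males minus females in α-cells. SYT11 ran from -0.70 to 0.44 for δ- against α-cells, and SYT11 ran from -0.23 to 0.11, SYT13 from -0.21 to 0.066, SYT4 from -0.046 to 0.065 and SYT5 from -0.11 to 0.10 for age in α-cells. SYT13 ran from -0.26 to 0.30 and SYT7 from -0.26 to 0.85 for age in δ-cells, and SYT14 ran from -0.68 to 0.20, SYT4 from -0.31 to 0.27 and SYT9 from -0.64 to 1.53 for PP- against β-cells. SYT14 ran from -0.53 to 0.22, SYT4 from -0.48 to 0.14 and SYT9 from -1.35 to 1.16 for PP- against δ-cells, and SYT14 ran from -0.25 to 0.11 and SYT4 from -0.063 to 0.17 for δ- against β-cells. SYT4 ran from -0.28 to 0.031, SYT5 from -0.030 to 0.71 and SYT9 from -0.41 to 0.69 for the age difference of males minus females in β-cells, and SYT4 ran from -1.86 to 2.40 and SYT7 from -0.50 to 0.25 for age in PP-cells. SYT5 ran from -0.31 to 0.15, SYT7 from -0.27 to 0.12 and SYT9 from -0.50 to 1.68 for PP- against α-cells, and SYT5 ran from -0.060 to 0.36, SYT7 from -0.13 to 0.13 and SYT9 from -0.47 to 0.16 for age in β-cells. With DESeq2, SYT5 was 0.13 and SYT7 0.13 for PP- against α-cells, SYT14 was 0.14 for δ- against β-cells, and SYT11 was 0.47 and SYT14 0.10 for PP- against β-cells. SYT14 was -0.042 for PP- against δ-cells, and SYT5 was 0.0044 for age in α-cells. With at least 10 cells per sum, SYT11 was 0.29 and SYT14 0.31 for δ- against α-cells, SYT5 was 0.23, SYT7 0.25 and SYT9 -3.09 for PP- against α-cells, and SYT14 was 0.60 for δ- against β-cells. SYT9 was -3.24, SYT13 0.40 and SYT14 0.29 for PP- against β-cells, SYT9 was -4.48 and SYT14 -0.31 for PP- against δ-cells, and SYT13 was -0.25 for age in δ-cells. In thinned cells, SYT4 was -0.17 for δ- against β-cells, SYT4 was -0.32 for PP- against β-cells, and SYT14 was -0.31 for PP- against δ-cells. SYT4 was -0.0040 and SYT5 0.073 for age in α-cells, and SYT9 was -0.055 for the age difference of males minus females in α-cells. With the hormone ratio of at least 4, SYT11 was 0.33 for δ- against α-cells, SYT4 was -0.18 for δ- against β-cells, and SYT4 was -0.023 for age in β-cells. SYT4 was -0.18, SYT5 -0.14, SYT9 -0.12 and SYT11 0.62 for the age difference of β- minus α-cells, SYT11 was -0.11 for the age difference of males minus females in α-cells, and SYT4 was 0.33, SYT5 -0.058, SYT9 -3.63 and SYT14 0.83 for the age difference of males minus females in β-cells. With the hormones left out, SYT11 was 0.029 for δ- against α-cells, SYT4 was -0.036 for PP- against β-cells, and SYT14 was -0.033 for PP- against δ-cells. SYT5 was 0.0026 for age in α-cells. By permutation, SYT14 was 0.034 for β- against α-cells, SYT11 was 0.16 for δ- against α-cells, and SYT5 was 0.099 for PP- against α-cells. SYT4 was -0.24 for δ- against β-cells, SYT4 was -0.45 for PP- against β-cells, and SYT4 was 0.26 and SYT5 -0.20 for PP- against δ-cells. SYT4 was -0.035 and SYT13 0.064 for age in α-cells, SYT5 was -0.0056 for age in β-cells, and SYT4 was 0.037 for age in δ-cells. SYT4 was 0.55 for age in PP-cells. Without TMM factors, SYT11 was 0.083 for δ- against α-cells, SYT14 was 0.033 for δ- against β-cells, and SYT4 was -0.077 for PP- against β-cells. SYT14 was -0.22 for PP- against δ-cells, SYT5 was 0.0021 for age in α-cells, and SYT7 was 0.018 for age in β-cells. Without the filter on low counts, SYT4 was -0.0027 for PP- against β-cells, SYT14 was -0.022 for PP- against δ-cells, and SYT5 was 0.0048 for age in α-cells. Without the monkey term, SYT11 was 1.87 for δ- against α-cells, SYT5 was 0.090 and SYT7 0.020 for PP- against α-cells, and SYT14 was 0.0042 for δ- against β-cells. SYT4 was 0.059 and SYT14 -0.11 for PP- against δ-cells. Without the sex term, SYT7 was 0.041 for age in β-cells, and SYT4 was 0.077 for age in PP-cells. With over 2000 genes and 20000 UMIs, SYT11 was 0.21 for δ- against α-cells, SYT14 was 0.16 for δ- against β-cells, and SYT14 was -0.19 for PP- against δ-cells. SYT5 was 0.023 for age in α-cells. Without cells above the 95th percentile of UMIs, SYT5 was 0.084 for PP- against α-cells, SYT4 was -0.022 and SYT14 0.036 for δ- against β-cells, and SYT4 was -0.11 for PP- against β-cells. SYT14 was -0.070 for PP- against δ-cells, SYT5 was 0.024 and SYT13 0.037 for age in α-cells, and SYT7 was 0.029 and SYT9 0.057 for age in β-cells. SYT4 was 0.19 for age in δ-cells. Without cells that carried non-endocrine markers, SYT4 was -0.027 and SYT14 0.016 for PP- against β-cells, SYT7 was 0.042 for age in β-cells, and SYT1 was -0.017 for the age difference of β- minus α-cells.

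Monkeys of the 2 ages share only a number. Over 8 pairs, deviations from the group mean correlated between -0.099 and 0.161 in α-cells and between -0.177 and 0.109 in β-cells, and 2 and 4 of 8 young monkeys correlated best with their own number. With the replicate number as a block, 0 members were called, SYT7 in α-cells was 0.56 (adjusted p = 0.617) and SYT13 in β-cells 0.64 (adjusted p = 0.911). The block could not be fitted in PP-cells. Depth limits δ- and PP-cells most, with sums from 206257 and 208618 UMIs.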

Other observations

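The monkey old male 2, chosen after its values were seen, was low in SYT13 in several types. It had the lowest level of all monkeys in α-cells (46.0 CPM, 290 cells) and in PP-cells (57.5 CPM, only 5 cells). In β-cells it had the lowest of the old monkeys (194 CPM, 67 cells). Its δ-cell level, also from 5 cells, was 497 CPM in a range from 315 to 1007 CPM. Its SYT7 level in β-cells was also the lowest of 16, at 55.4 CPM.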
